A study of Homo sapiens with 6 samples.

Results

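Genes of DNA damage repair and the DNA damage checkpoint were followed in 3 states of IMR90 cells, human diploid lung fibroblasts that carry ER:Ras, an oncogenic H-rasV12 protein switched on by 4-hydroxytamoxifen (4-OHT). The list was set by gene name and holds 45 genes, of which 39 were among the 19775 genes that could be read, with 19 genes of homologous recombination, 9 of the Fanconi pathway, 3 of mismatch repair, 9 of the checkpoint and 5 of excision and single-strand break repair. Growing cells had neither 4-OHT nor siRNA. Ctrl-KD OIS cells had 100 nM 4-OHT for 6 days, which brings on oncogene-induced senescence (OIS), and a control siRNA against luciferase for the last 4 of those days. RB-KD OIS cells had the same 4-OHT and, over the same 4 days, a mixture of siRNAs against RB1, which encodes the retinoblastoma protein RB. Each state had 2 biological replicates, with 1 Affymetrix U133 Plus 2.0 array each, so 6 arrays in all. OIS cells differed from growing cells by Ras, by 4-OHT itself and by a transfection, and these cannot be told apart.

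Homologous recombination repairs a DNA double-strand break by copying the sister chromatid, so its proteins act mainly in S and G2 phase. Ends are resected by the MRE11, RAD50 and NBN complex with EXO1, BRCA1 and BARD1 act with PALB2 and BRCA2 in strand exchange, and BLM, WRN and the RAD54 proteins act on the joined strands. The Fanconi pathway unhooks DNA crosslinks at stalled forks: a core complex of FANCA, FANCB, FANCC, FANCE, FANCF, FANCG and FANCL places ubiquitin on FANCI and FANCD2. Mismatch repair corrects copying errors behind the fork, and MSH6 and MSH3 take part in recognising them. The kinases ATM and ATR sense breaks and exposed single-stranded DNA, and signal through CHEK2 and CHEK1 to hold the cell cycle. In arrested cells RB binds E2F transcription factors and holds down genes of DNA replication. The comparisons ask which repair and checkpoint genes differ in senescent cells, and which differ again when RB1 is depleted.

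RB1 itself was reduced on the RB-KD OIS arrays (labelled siRB1). Its signal, the linear MAS5 value of the array, was 2627 and 2528 in growing, 2578 and 1914.5 in Ctrl-KD OIS and 222 and 228.5 in RB-KD OIS cells, which is -3.30 on the log2 scale between the OIS states. All 10 fibroblast markers examined lay above the array median on all 6 arrays. Compared with growing cells 6 of these were lower and 0 higher in Ctrl-KD OIS (median log2 fold change -1.35). In RB-KD OIS against growing cells 4 were lower and 1 higher (median -0.29). Between the OIS states 3 were higher with RB1 depleted and 0 lower (median 0.37). Of all genes tested 21.2% were lower in the first comparison, 19.0% lower in the second and 12.6% higher in the third. The part of these markers in the results below was not tested. On each array 3 to 5 of 11 markers of epithelial, endothelial and immune cells lay above the median, with summed signals of 433 to 621. Cell cycle genes differed with the states. The summed signal of 18 genes of S phase, G2 and mitosis was 58991 to 59619 in growing, 12480 to 16030 in Ctrl-KD OIS and 50831 to 55193 in RB-KD OIS cells. This sum follows the brightest genes, and the mean log2 signal, to which each gene counts alike, was 10.9 to 10.97, 8.46 to 8.97 and 9.87 to 10.18. In Ctrl-KD OIS against growing cells 17 of the 18 were lower, and between the OIS states 10 rose with RB1 depleted. In RB-KD OIS against growing cells 9 were lower and 6 higher, with a median log2 fold change of -1.06. The part of cycling in the results below was not tested, and in such bulk RNA fewer cells in S phase cannot be told apart from less RNA in each cell.

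Of the 45 genes, 39 had a probe set of their own and 38 were tested, that is, they lay above the array median (46.0 to 51.8) on at least 2 of 6 arrays. XRCC3, a homologous recombination gene, lay above it on 1 array only, with signals of 14.0 and 6.2 in growing, 39.9 and 5.3 in Ctrl-KD OIS and 23.3 and 52.1 in RB-KD OIS cells, and was not tested. PMS2 and ATRIP were named only together with other genes, and BRCA2, RBBP8, FANCA and FANCD2 were not analysed here. FANCB passed only through the growing arrays, where it is high, so its lower values in the OIS states were favoured by the filter. RAD54L, BLM and EXO1 fell under the median on the first Ctrl-KD OIS array, and the other tested genes lay above it on all 6 arrays.

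In Ctrl-KD OIS cells the repair genes were mostly low. Against growing cells 21 of the 38 were lower and 2 higher (limma, adjusted p under 0.05), where 21.2% of all 13398 genes tested were called lower and 20.5% higher. The median log2 fold change of the list was -0.76, beside -0.0094 for all genes. Between the OIS states 20 of the 38 were higher with RB1 depleted and 1 was lower, beside 12.6% and 11.6% of all genes, with a median of 0.65 beside -0.023. In RB-KD OIS against growing cells 9 were higher and 6 lower, close to the 18.5% and 19.0% of all genes, with a median of 0.0018 beside -0.015. Without FANCB the lower genes were 20 of 37 in Ctrl-KD OIS and 5 of 37 in RB-KD OIS cells. As each pair of these comparisons shares arrays, the values are given side by side and the counts are not set against each other.

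**Figure D1:**
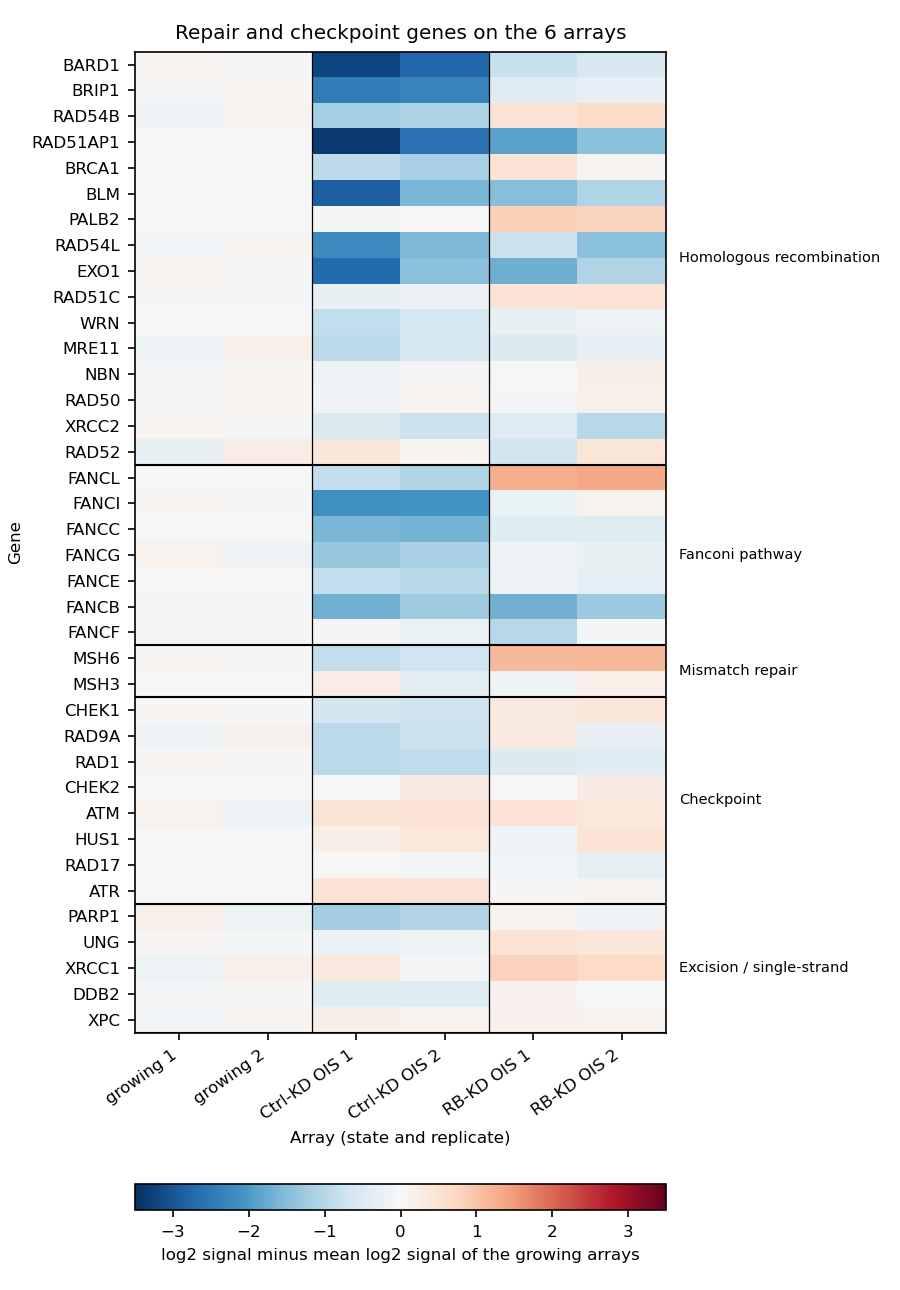
Log2 MAS5 signal of the 38 tested genes on the 6 arrays, less the mean of the growing arrays, in rows grouped by pathway and ordered by the change between the OIS states. Blue (low) fills the Ctrl-KD OIS columns for most genes of homologous recombination and the Fanconi pathway, while FANCL and MSH6 are the reddest in the RB-KD OIS columns. FANCB lay under the array median on all OIS arrays.

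The counts were also split by pathway, some with few tested genes. In Ctrl-KD OIS against growing cells 10 of 16 genes of homologous recombination, 6 of 7 of the Fanconi pathway (5 of 6 without FANCB), 1 of 2 of mismatch repair, 2 of 8 of the checkpoint and 2 of 5 of excision repair were lower. Both genes that were higher, ATM and ATR, belong to the checkpoint. Its 2 of 8 genes higher and 2 of 8 lower are near the 20.5% and 21.2% of all genes in that comparison. Between the OIS states 8 genes of homologous recombination, 5 of the Fanconi pathway, 1 of mismatch repair, 2 of the checkpoint and 4 of excision repair were higher in RB-KD OIS cells, and the 1 that was lower was ATR. The median log2 fold change between the OIS states was 0.76 for homologous recombination, 1.05 for the Fanconi pathway, -0.01 for the checkpoint and 0.61 for excision repair. Of all genes 12.6% were higher and 11.6% lower between the OIS states. Differences between pathways were not tested.

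**Figure D2:**
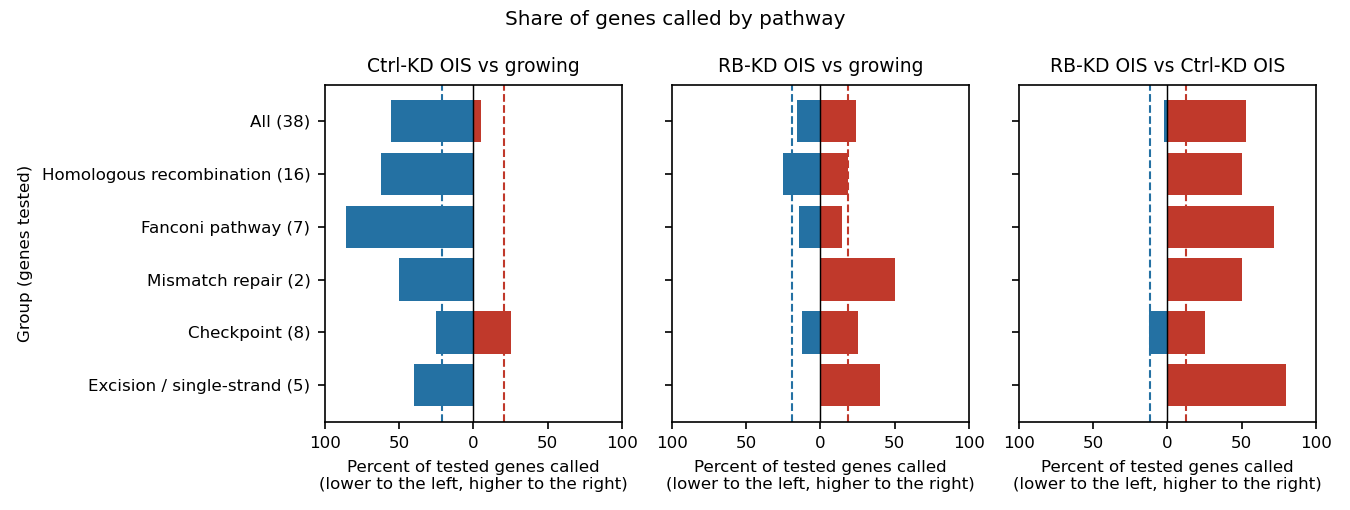
Percent of tested genes called lower (blue, to the left) and higher (red, to the right) in each comparison, for all 38 genes and by pathway, with the number tested in brackets and FANCB included. Dashed lines mark the share of all 13398 genes called in the same direction, 21.2% and 20.5% in the first panel. For all 38 genes the bars of the middle panel end near those lines, while the blue bar of the first panel and the red bar of the last reach well past them.

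The DNA before the start site is shown for the gene with the largest called rise between the OIS states in each pathway, and for ATR, the 1 that fell. Each run is the 100 bases before the most upstream RefSeq start in GRCh38.p14, read 5′ to 3′ on the gene's strand: BARD1 (chr2:214809684-214809783, minus), FANCL (chr2:58241326-58241425, minus), MSH6 (chr2:47783045-47783144, plus), CHEK1 (chr11:125626124-125626223, plus), PARP1 (chr1:226408094-226408193, minus) and ATR (chr3:142578734-142578833, minus). All 6 lie outside the RefSeq transcripts of these genes. They carry no capitals because none of these runs holds the E2F letters that were searched.
BARD1: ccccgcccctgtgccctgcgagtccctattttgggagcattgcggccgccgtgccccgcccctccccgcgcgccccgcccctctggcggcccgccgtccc
FANCL: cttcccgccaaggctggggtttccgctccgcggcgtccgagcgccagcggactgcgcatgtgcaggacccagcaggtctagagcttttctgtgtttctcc
MSH6: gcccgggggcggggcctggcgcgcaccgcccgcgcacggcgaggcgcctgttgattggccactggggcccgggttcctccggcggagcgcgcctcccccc
CHEK1: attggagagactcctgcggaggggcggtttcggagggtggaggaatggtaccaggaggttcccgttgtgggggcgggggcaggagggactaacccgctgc
PARP1: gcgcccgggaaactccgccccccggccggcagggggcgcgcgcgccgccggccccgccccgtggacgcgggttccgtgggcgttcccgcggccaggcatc
ATR: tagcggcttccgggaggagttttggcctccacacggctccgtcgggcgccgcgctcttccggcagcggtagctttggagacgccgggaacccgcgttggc

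E2F letters were searched as TTTCCCGC, TTTGGCGC, TTTCGCGC and TTTGCCGC on both strands, from 250 bases before to 50 after each RefSeq start. Of 33 tested genes of the list with such a window 7 held a match (21.2%), beside 689 of 10810 genes tested on the arrays (6.37%) and 3.99% of all genes with a window. Counted by window, since a gene can have several starts, the shares were 14.3% for the list and 4.67% for the genes tested. Among the genes that rose between the OIS states 3 of 17 held one (17.6%, or 11.1% by window), namely FANCC, MSH6 and UNG. The MSH6 match starts 3 bases after its start site. The UNG match starts 63 bases before a start that lies downstream of another UNG start. EXO1, MSH3, XPC and XRCC2 held one too and were not called between the OIS states. CHR letters (TTTGAA and TTCGAA, both strands), known from promoters of mitotic genes, were in 21.2% of the same 33 genes and 16.1% of the genes tested. No window was at hand for RAD54B, NBN, WRN, FANCI and HUS1.

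FANCC is shown as a gene that rose and holds matches, and was chosen after its values were seen. The run (chr9:95317710-95317889, minus) holds matches that start 172 and 46 bases before the start site. Capitals mark the matched letters, which are a description of the sequence and not a measured site.
FANCC: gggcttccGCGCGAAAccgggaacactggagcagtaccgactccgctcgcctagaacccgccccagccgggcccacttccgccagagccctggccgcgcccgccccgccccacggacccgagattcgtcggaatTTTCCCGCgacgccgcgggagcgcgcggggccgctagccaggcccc

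BARD1, which pairs with BRCA1 in a ubiquitin ligase, had the largest change between the OIS states. Its signal was 1019 and 929 in growing, 105 and 146 in Ctrl-KD OIS and 566 and 654 in RB-KD OIS cells. The states do not overlap, and the RB-KD OIS arrays sit between the others. The log2 fold change was -2.98 (SE 0.19, adjusted p = 3.16e-06) in Ctrl-KD OIS against growing cells and 2.30 (SE 0.19, adjusted p = 6.96e-05) between the OIS states. Its 3 probe sets above the median gave -3.47 to -2.75 for the former. BRCA1 read 326 and 329.6 in growing, 173 and 150.4 in Ctrl-KD OIS and 454 and 349.5 in RB-KD OIS cells. Both Ctrl-KD OIS arrays were the lowest, and the changes were -1.02 (adjusted p = 0.00279) and, between the OIS states, 1.30 (adjusted p = 0.00178). A second, dimmer BRCA1 probe set read 112 and 102.5 in growing and 106 and 129 in Ctrl-KD OIS cells, and the mean of both sets gave -0.45 with no call (adjusted p = 0.126).

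BRIP1, the helicase that binds BRCA1, fell from 887 and 979 in growing to 169.7 and 186 in Ctrl-KD OIS cells and stood at 698 and 764 in RB-KD OIS cells. The changes were -2.39 (SE 0.14, adjusted p = 2.15e-06) and 2.04 between the OIS states (SE 0.14, adjusted p = 2.94e-05). RAD51AP1, which stimulates strand invasion, was lowest in the same state. Its signals were 1760.5 and 1757 in growing, 172 and 290.4 in Ctrl-KD OIS and 482 and 648 in RB-KD OIS cells, and it stayed well below growing cells when RB1 was depleted (-1.65, SE 0.24, adjusted p = 0.000599). Its rise between the OIS states was 1.32 (adjusted p = 0.00416), which missed the threshold with no trend in the prior variance (adjusted p = 0.0625). RAD54B, a DNA translocase of the RAD54 kind, read 298 and 348 in growing, 141 and 153.5 in Ctrl-KD OIS and 452 and 502 in RB-KD OIS cells. For this gene the RB-KD OIS arrays were the highest, with a rise of 1.70 over Ctrl-KD OIS cells (SE 0.18, adjusted p = 0.000307).

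PALB2 and RAD51C had no call in Ctrl-KD OIS against growing cells, and whether they differ from the genes above was not tested. PALB2, the bridge between BRCA1 and BRCA2, read 604 and 592.5 in growing, 577 and 608 in Ctrl-KD OIS and 1071.5 and 1030 in RB-KD OIS cells. The first 4 arrays overlap and both RB-KD OIS arrays lie above them, a rise of 0.83 over Ctrl-KD OIS (adjusted p = 0.00124) and of 0.81 over growing cells (adjusted p = 0.000599). RAD51C, a strand exchange factor, was 1191 and 1226 in RB-KD OIS cells, above 728 and 747 in Ctrl-KD OIS (0.71, adjusted p = 0.00185) and above 896 and 839 in growing cells (0.48, adjusted p = 0.00759). Both Ctrl-KD OIS arrays lay below both growing arrays for this gene (-0.23, interval -0.48 to 0.01, adjusted p = 0.121). Its other probe set gave 0.17 for the same comparison (adjusted p = 0.519).

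**Figure D3:**
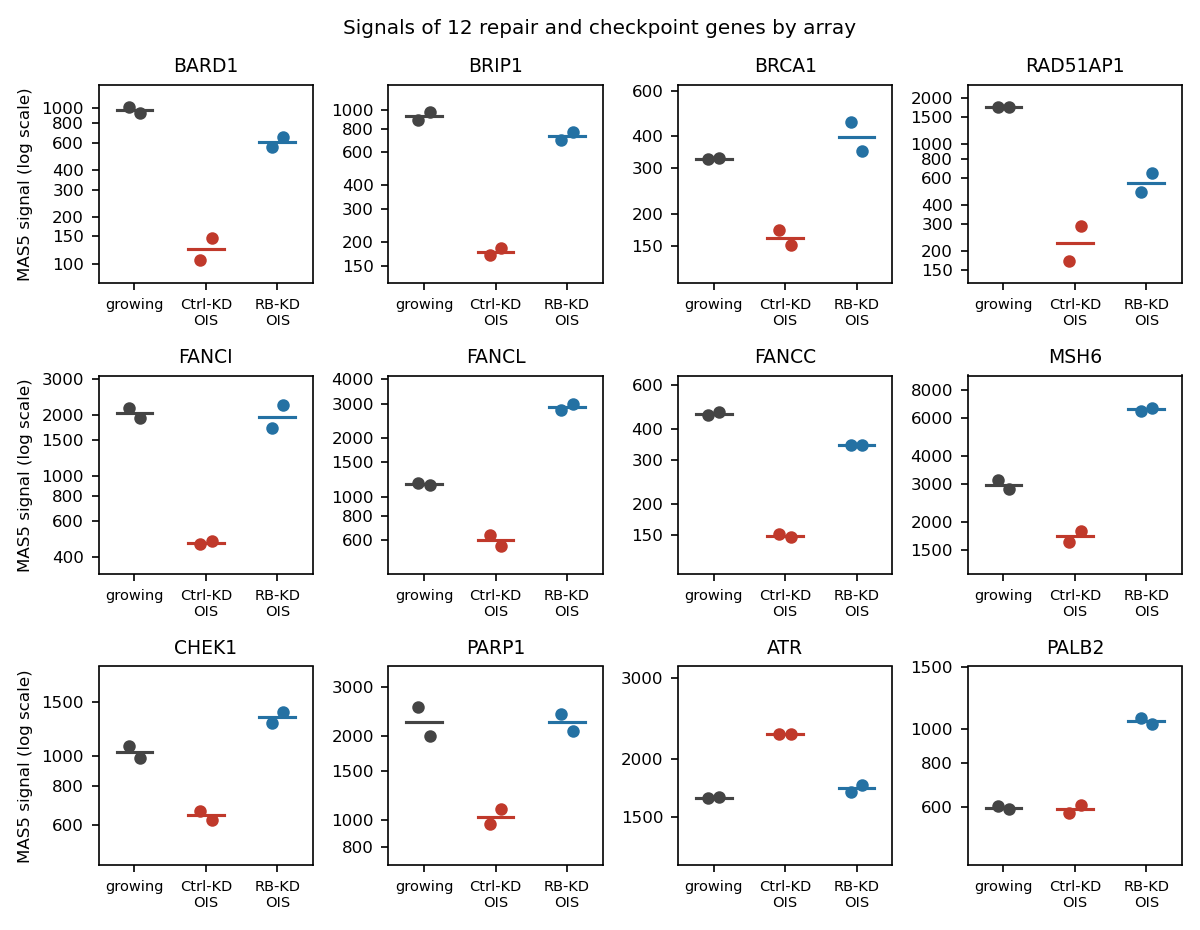
MAS5 signal on each of the 6 arrays (points, log axis) and the geometric mean of each state (bars) for 12 genes. In 10 panels Ctrl-KD OIS cells are the lowest state, while ATR is highest there (2273.5 and 2265) and PALB2 is raised only on the RB-KD OIS arrays among the 6 shown (1071.5 and 1030).

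Among the genes that process DNA ends or joined strands, BLM, EXO1, WRN, MRE11 and RAD54L were reduced in Ctrl-KD OIS cells, compared with growing cells. BLM, a helicase that dissolves joined molecules, fell from 322 and 331 to 43.8 and 109, a log2 change of -2.24 (SE 0.41, adjusted p = 0.00194). EXO1, an exonuclease of end resection, fell by 2.09 (SE 0.43, adjusted p = 0.00361). RAD54L, the other RAD54 translocase, fell by 1.91 (SE 0.40, adjusted p = 0.00404). These 3 had wide errors, and the replicates of Ctrl-KD OIS differed (EXO1 42.6 and 100.4, RAD54L 41.0 and 65.2). Between the OIS states the change was 0.97 for BLM (95% interval 0.04 to 1.90, adjusted p = 0.122), 0.71 for EXO1 (-0.25 to 1.68, adjusted p = 0.271) and 0.81 for RAD54L (-0.09 to 1.71, adjusted p = 0.181), with no call. The BLM value depended on the Ctrl-KD OIS array kept, at 1.63 without the second (adjusted p = 0.0134), but 0.31 without the first (adjusted p = 0.517).

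The genes of the end-binding complex were not all called, and whether they differ was not tested. MRE11, its nuclease, was lower in Ctrl-KD OIS cells (-0.78, adjusted p = 0.00714; 0.0734 without the second growing array, or 0.303 if all its probe sets were averaged), while RAD50 was not called in any comparison (-0.01 in Ctrl-KD OIS cells, 95% interval -0.29 to 0.27). For NBN the brightest probe set gave -0.06 (-0.31 to 0.19), but another set read 1907 and 1691 in growing, 2935 and 2746 in Ctrl-KD OIS and 3679.8 and 3394 in RB-KD OIS cells. With the mean of the NBN probe sets above the array median the gene was called higher in Ctrl-KD OIS (0.35, adjusted p = 0.0168) and in RB-KD OIS (0.62, adjusted p = 0.00124) than in growing cells. In the same setting RAD50 was called lower in Ctrl-KD OIS cells (-0.46, adjusted p = 0.0404). The dimmer RAD50 probe sets gave -0.53 and -0.85 there, in the direction of MRE11. WRN, the helicase lost in Werner syndrome, was lower in Ctrl-KD OIS cells by a log2 change of -0.73 (adjusted p = 0.00455), and its rise of 0.51 between the OIS states passed narrowly (adjusted p = 0.0425). That rise missed the threshold without any 1 of 5 arrays (all but the second Ctrl-KD OIS array), where adjusted p reached 0.152. It also missed it with quantile normalization, no filter, no trend, the mean of all probe sets and the fit of the OIS states alone (adjusted p 0.0571 to 0.0848), and so held in 6 of 16 settings. XRCC2 (-0.08 between the OIS states, 95% interval -0.83 to 0.68) and RAD52 (-0.35, -1.41 to 0.71) were not called in any comparison, with intervals too wide to show that they did not move.

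The Fanconi genes were among the most shifted of the list. FANCL, the ubiquitin ligase of the core complex, read 1173 and 1151 in growing, 636 and 562 in Ctrl-KD OIS and 2796 and 2989 in RB-KD OIS cells. The arrays of the 3 states are well apart, with RB-KD OIS highest, 2.27 above Ctrl-KD OIS cells on the log2 scale (SE 0.11, adjusted p = 4.42e-06) and 1.31 above growing cells (adjusted p = 2.19e-05). FANCI, which receives the ubiquitin with FANCD2, fell from 2152 and 1925 in growing to 463 and 479 in Ctrl-KD OIS cells, a log2 change of -2.11 (adjusted p = 3.34e-06). In RB-KD OIS cells it read 1727 and 2226, which spans the growing arrays (2.06 above Ctrl-KD OIS, adjusted p = 2.11e-05). The dimmest of its probe sets gave 0.24 between the OIS states.

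The core complex genes FANCC, FANCG and FANCE followed with smaller changes. FANCC read 453 and 466.5 in growing, 152 and 147 in Ctrl-KD OIS and 345 and 344.8 in RB-KD OIS cells, so that the RB-KD OIS arrays lay between the others (1.21 between the OIS states, adjusted p = 0.00114). The mean of its 3 probe sets gave -0.17 for the same difference (adjusted p = 0.843), and the other 2 sets lay under the array median on all or all but 1 array. FANCG read 489 and 418 in growing, 181 and 204 in Ctrl-KD OIS and 419 and 379 in RB-KD OIS cells, and rose by 1.05 between the OIS states (SE 0.17, adjusted p = 0.00273). FANCE, which binds FANCD2, read 429 and 417, then 232 and 214.5, then 382 and 334 in the same order of states. Its rise of 0.68 (adjusted p = 0.018) missed the threshold without the first RB-KD OIS array (adjusted p = 0.101) or the second Ctrl-KD OIS array (adjusted p = 0.0635).

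FANCB and FANCF were not called between the OIS states. FANCB, a core complex gene, read 116.5 and 108 in growing cells and lay under the array median on the OIS arrays, at 35.3 and 47.2 in Ctrl-KD OIS and 34.8 and 45.8 in RB-KD OIS cells. Compared with growing cells its signal in Ctrl-KD OIS cells was at least 2.36-fold lower, and that in RB-KD OIS cells at least 2.39-fold lower. As the gene entered the fit only through the growing arrays, where it is high, these folds are a description, and with no filter on low signal neither passed (adjusted p = 0.0602 and 0.0598). With both OIS states under the median, a change between them could not be read. FANCF, the adaptor of the core complex, was at -0.36 between the OIS states (-1.0 to 0.27). Its RB-KD OIS replicates were far apart, 177 and 339, so that the change was -0.83 without the second and 0.10 without the first. A second FANCF probe set, above the median on all 6 arrays, read 157.3 and 148.7 on the RB-KD OIS arrays. It gave -0.39 between the OIS states (adjusted p = 0.231). Relative to growing cells it gave -0.67 with RB1 depleted (adjusted p = 0.0315). With the mean of probe sets above the median FANCF was called lower in RB-KD OIS than in growing cells (-0.59, adjusted p = 0.0488).

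Of the mismatch repair genes MSH6 was called and MSH3 was not. MSH6 read 3107 and 2852 in growing, 1626 and 1829.6 in Ctrl-KD OIS and 6477 and 6687 in RB-KD OIS cells. Like FANCL it was highest in RB-KD OIS cells, 1.93 above Ctrl-KD OIS cells (SE 0.10, adjusted p = 4.42e-06) and 1.14 above growing cells (adjusted p = 2.3e-05). Its second probe set above the median gave 1.80 and 0.83, while the mean over 4 probe sets, of which 2 lay under the median on all arrays, gave 0.51 between the OIS states with no call (adjusted p = 0.322). MSH3 had no call in any comparison, at 0.06 between the OIS states (95% interval -0.40 to 0.53), and its Ctrl-KD OIS replicates were 750.3 and 483. Its second probe set, above the median on all 6 arrays, read 539.5 and 644.7 in growing, 403.3 and 463.9 in Ctrl-KD OIS and 777.7 and 555 in RB-KD OIS cells. That set gave -0.45 in Ctrl-KD OIS against growing cells (adjusted p = 0.0958) and 0.60 between the OIS states (adjusted p = 0.0549), in the directions of MSH6. Whether the genes differ was not tested.

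In the checkpoint the sensor kinase ATR and the effector kinase CHEK1 moved in opposite directions in Ctrl-KD OIS against growing cells. CHEK1, which ATR activates, read 1079.5 and 983 in growing, 666 and 622 in Ctrl-KD OIS and 1281 and 1394 in RB-KD OIS cells, with changes of -0.68 (adjusted p = 0.0013) and 1.05 between the OIS states (adjusted p = 0.000333). Its 3 probe sets above the median gave -0.68 to -0.43 for the former, and the mean with a further, dim set gave no call (adjusted p = 0.114 and 0.0903). ATR read 1648 and 1653 in growing, 2273.5 and 2265 in Ctrl-KD OIS and 1697 and 1759 in RB-KD OIS cells. The Ctrl-KD OIS arrays stand above the other 4, a rise of 0.46 (SE 0.09, adjusted p = 0.00287) and a fall of 0.39 between the OIS states (SE 0.09, adjusted p = 0.0128). Its second probe set gave 0.50 and -0.43. The fall missed the threshold without the first RB-KD OIS array (adjusted p = 0.0659) and with no trend in the prior variance (adjusted p = 0.0573), and both ATR calls did with the mean of all probe sets (adjusted p = 0.895 and 0.656).

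ATM read 539.7 and 458 in growing, 696 and 683 in Ctrl-KD OIS and 708 and 645 in RB-KD OIS cells, and was higher than in growing cells in both OIS states (0.47, adjusted p = 0.0218; 0.44, adjusted p = 0.0313). The calls rest on 1 probe set. A second of like brightness read 599 and 645 in growing, 572 and 628 in Ctrl-KD OIS and 657 and 579.6 in RB-KD OIS cells. Compared with growing cells, a dimmer set gave 0.46 in Ctrl-KD OIS (adjusted p = 0.11) and -0.05 in RB-KD OIS. The dimmest set above the median gave -0.14 and -0.42. The mean of the sets above the median gave 0.19 and -0.01, with no call (adjusted p = 0.361 and 0.964). The mean of all ATM probe sets, some under the median on every array, had the other sign (-0.10 and -0.36, adjusted p = 0.845 and 0.426). Leaving out any 1 array of the states compared except the first growing array also ended both calls (adjusted p up to 0.171 and 0.225). RAD1, part of the ring-shaped clamp loaded at damaged DNA, was lower in Ctrl-KD OIS cells at 1115 and 1146 than in growing cells at 2252 and 2030.5 (-0.92, adjusted p = 8.29e-05). In RB-KD OIS cells it stood between them at 1526 and 1579.7 (0.46 above Ctrl-KD OIS cells, adjusted p = 0.0106; 0.0518 without the second RB-KD OIS array and 0.0574 with no trend). All 5 RAD1 probe sets gave the same sign.

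The other clamp genes, the clamp loader subunit RAD17 and the effector kinase CHEK2 were not called. RAD9A had a log2 change of -0.85 in Ctrl-KD OIS against growing cells (95% interval -1.54 to -0.16, adjusted p = 0.0519; 0.0405 and 0.0485 without either RB-KD OIS array, but up to 0.235 without an array of the states compared) and of 0.86 between the OIS states (0.17 to 1.55, adjusted p = 0.0724). HUS1 gave -0.10 between the OIS states (-0.51 to 0.30), RAD17 gave -0.18 (-0.43 to 0.06) and CHEK2 gave -0.00 (-0.44 to 0.44). HUS1 read 869 and 1330.1 on the RB-KD OIS arrays. Its change from growing cells was 0.48 without the first of them, but -0.13 when the other was left out. Its dimmer probe sets, above the median on all 6 arrays, gave -0.52 (adjusted p = 0.0586) and -0.33 (adjusted p = 0.57) between the OIS states. In Ctrl-KD OIS against growing cells they gave 0.44 (adjusted p = 0.0647) and 0.18 (adjusted p = 0.731), beside 0.28 for the brightest set.

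Among the excision and single-strand break repair genes PARP1, the sensor of single-strand breaks, had the largest change. It read 2542 and 2000.3 in growing, 967 and 1099 in Ctrl-KD OIS and 2411 and 2084 in RB-KD OIS cells. The RB-KD OIS arrays lie within the span of the growing ones, and the changes were -1.13 (adjusted p = 0.000175) and 1.12 between the OIS states (SE 0.14, adjusted p = 0.000615). UNG, the uracil glycosylase, read 1780 and 1689 in growing, 1517 and 1554 in Ctrl-KD OIS and 2401 and 2332 in RB-KD OIS cells. Its change was -0.18 in Ctrl-KD OIS against growing cells (adjusted p = 0.163) and 0.62 between the OIS states (SE 0.09, adjusted p = 0.00148). DDB2, a damage sensor of nucleotide excision repair and a known p53 target, was lower in Ctrl-KD OIS cells (935 and 947) than in growing cells (1236 and 1285) or RB-KD OIS cells (1408 and 1269). Its fall of 0.42 (adjusted p = 0.0111) was lost without either growing array (adjusted p up to 0.0862), and its rise of 0.51 between the OIS states (adjusted p = 0.00872) without the first RB-KD OIS array (adjusted p = 0.0616).

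XRCC1, the scaffold of single-strand break repair, read 356 and 449 in growing, 506 and 386 in Ctrl-KD OIS and 701 and 650.1 in RB-KD OIS cells. The RB-KD OIS arrays were the highest, 0.61 above Ctrl-KD OIS cells (adjusted p = 0.0378), a call lost without either RB-KD OIS array or the second Ctrl-KD OIS array (adjusted p up to 0.179). It was also lost with quantile normalization (adjusted p = 0.054), no filter (0.054), no trend (0.115) and the mean of all probe sets (0.0662), and held in 9 of 16 settings. XPC, which recognises distorted DNA, was not called, at -0.02 between the OIS states (-0.28 to 0.23).

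RB-KD OIS cells were then set against growing cells, to ask how close the repair genes stood to the level of growing cells. FANCL, MSH6, PALB2, XRCC1, RAD54B, RAD51C, UNG, ATM and CHEK1 were higher, by 0.37 for CHEK1 to 1.31 for FANCL on the log2 scale. RAD51AP1, FANCB, EXO1, BLM, BARD1 and RAD1 were lower, from -1.65 for RAD51AP1 to -0.46 for RAD1. BARD1 was thus still 0.68 below growing cells (95% interval of the change -1.11 to -0.25, adjusted p = 0.0199), although it had the largest rise over Ctrl-KD OIS cells. The other 23 tested genes were not called, which does not show that they had the growing level. For FANCI the change was -0.05 (-0.36 to 0.25), for PARP1 -0.01 (-0.32 to 0.30) and for BRCA1 0.28 (-0.17 to 0.73). For BRIP1 it was -0.35 (-0.68 to -0.03, adjusted p = 0.0848) and for FANCC -0.41 (-0.80 to -0.03, adjusted p = 0.0841), both with intervals below 0 and no call.

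Of the 15 calls only those of FANCL, PALB2 and RAD51AP1 held in all 16 alternative settings, and 14 of 23 in Ctrl-KD OIS against growing cells and 11 of 21 between the OIS states held in every setting run. Leaving out 1 array leaves its state with a single array, whose spread is then taken from the other states. Without the second growing array ATM, BARD1, BLM, CHEK1, EXO1, FANCB, RAD51C, RAD54B and UNG were no longer called (adjusted p 0.0519 to 0.225), although the changes of BARD1 (-0.74), RAD54B (0.68) and EXO1 (-1.45) were no smaller than with all arrays. Without the first, BARD1, BLM, CHEK1, EXO1, FANCB, RAD1, RAD54B and XRCC1 were not (0.0757 to 0.22). Without the first RB-KD OIS array ATM, BARD1, BLM, CHEK1, EXO1, FANCB, RAD54B and XRCC1 were lost (0.0543 to 0.173), and without the second ATM, BLM, CHEK1, FANCB and RAD54B (0.0573 to 0.163). RAD54L, at -1.10 (adjusted p = 0.0563), was at -1.46 without the first RB-KD OIS array (adjusted p = 0.0485) and at -0.74 (adjusted p = 0.248) when the second was left out. FANCF was at -0.03 without the first (adjusted p = 0.918) and at -0.97 (adjusted p = 0.0129) when the second was left out.

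**Figure D4:**
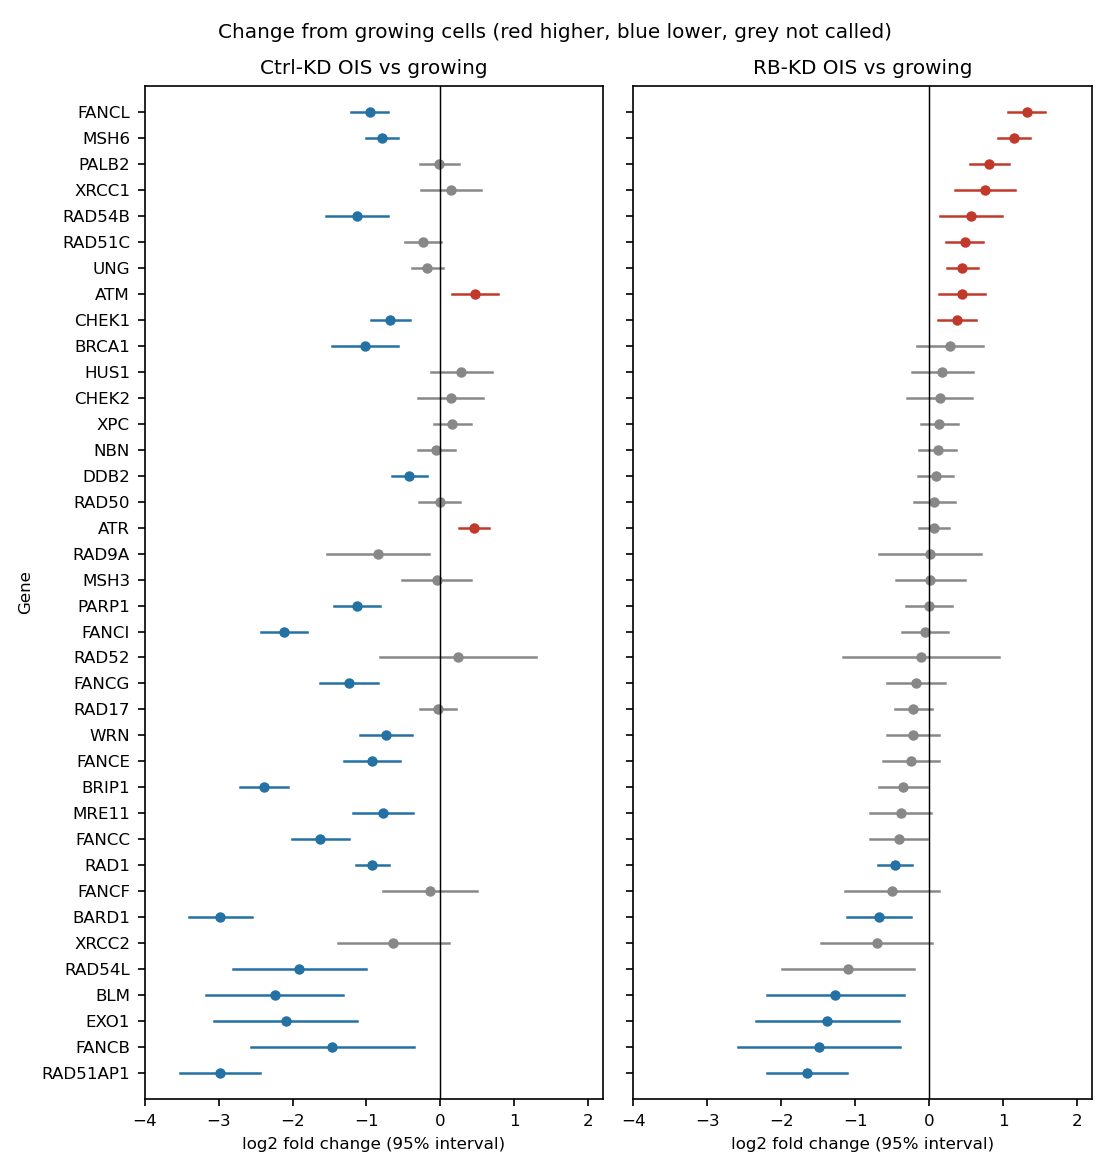
Log2 fold change of the 38 tested genes from growing cells in Ctrl-KD OIS (left) and RB-KD OIS cells (right), with 95% intervals from the limma fit, ordered by the right panel. Red and blue mark genes called higher and lower. The left panel lies mostly below 0, down to -2.98 for BARD1 and RAD51AP1, and the right panel runs from -1.65 for RAD51AP1 to 1.31 for FANCL. FANCB is plotted at its fitted value, which for a gene under the array median is not a bound.

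Probe sets of 1 gene served as a check of these values, since 18 of the tested genes had more than 1 probe set above the array median on at least 2 arrays. All probe sets of a gene gave 1 sign for 12 of the 18 in Ctrl-KD OIS against growing cells and for 14 of the 18 in each of the other comparisons. No gene had probe sets called in opposite directions. BARD1, BRIP1, FANCI, CHEK1, MSH6 and RAD1 kept 1 sign in Ctrl-KD OIS cells, and ATM, BRCA1, NBN, RAD17, RAD51C and RAD52 did not.

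**Figure D5:**
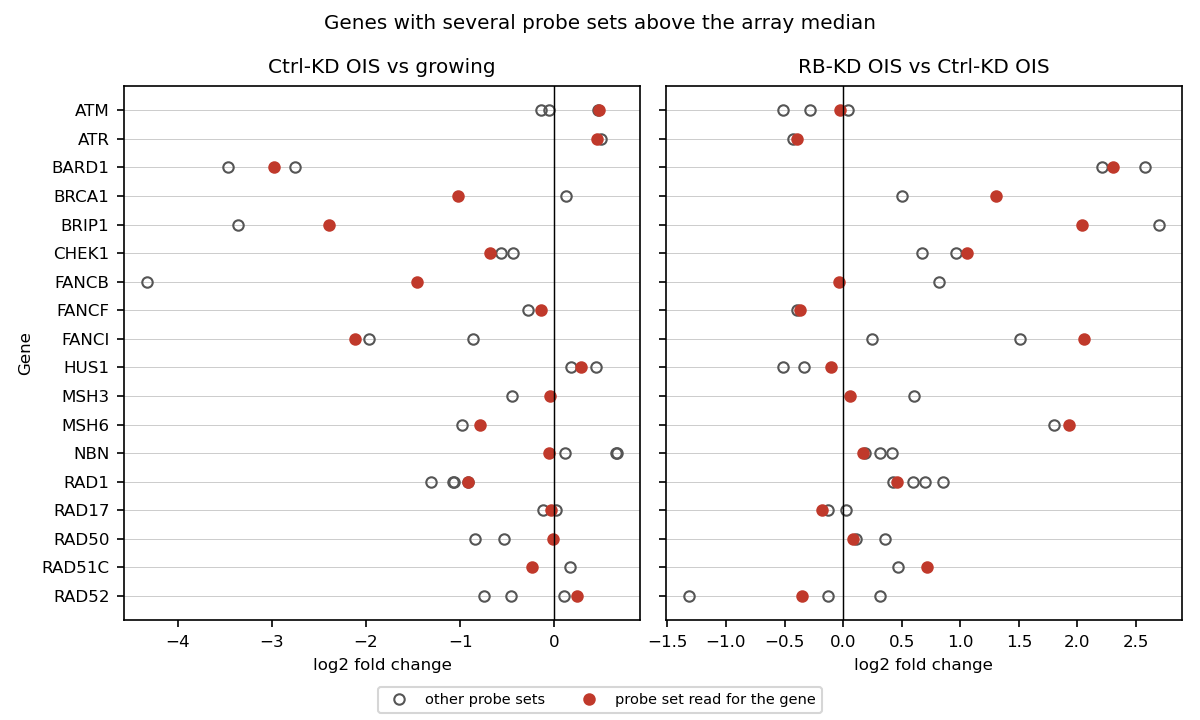
Log2 fold change of each probe set above the array median on at least 2 arrays, for the 18 genes with more than 1, in Ctrl-KD OIS against growing (left) and RB-KD against Ctrl-KD OIS cells (right). Red points are the brightest probe sets, used for the genes, and open circles the others. The 3 BARD1 sets lie between -3.47 and -2.75 on the left, while those of ATM, NBN and RAD52 fall on both sides of 0.

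The same pathways hold further genes, taken from a list of 117 other repair genes, 108 of them tested. With RB1 depleted 29 of these rose (26.9%) and 7 fell (6.48%), beside 12.6% and 11.6% of all genes. The 7 became 4 without either growing array and 3 with no trend in the prior variance. In homologous recombination 5 of 22 rose between the OIS states, led by RMI1 (2.16, adjusted p = 2e-05) and RMI2 (1.85, adjusted p = 0.0014), the partners of BLM, and 2 were lower, led by ABRAXAS1 of the BRCA1-A complex (-1.16, adjusted p = 0.0013). In the Fanconi pathway 3 of 9 were higher between the OIS states, with a median log2 fold change of -0.04 over the 9. In Ctrl-KD OIS against growing cells 2 of the 9 were lower (22.2%), near the share of all genes. USP1, which removes ubiquitin from FANCD2, had mean signals of 5354 ± 107 in growing, 1104 ± 85.8 in Ctrl-KD OIS and 7677 ± 73.1 in RB-KD OIS cells (SD, n = 2), a rise of 2.80 between the OIS states. UBE2T, the conjugating enzyme that works with FANCL, rose by 1.51.

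Of the further checkpoint genes 18 were tested. In Ctrl-KD OIS against growing cells 11 of 18 were lower and 1 higher, beside 21.2% and 20.5% of all genes, and between the OIS states 11 of 18 were higher and 0 lower, beside 12.6% and 11.6%. Whether these shares differ from those of the listed checkpoint genes was not tested. CLSPN, the mediator between ATR and CHEK1, rose by 2.10 between the OIS states (adjusted p = 0.0022) and CDC25A, the phosphatase that CHEK1 restrains, by 2.08 (adjusted p = 0.0024). In mismatch repair 1 of 2 was called, PMS1 (0.61, adjusted p = 0.0038).

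Among the 18 cell cycle genes single genes differed in their order of the states. MCM3, a subunit of the replicative helicase, was 3.20 above Ctrl-KD OIS (adjusted p = 3.5e-06) and 1.22 above growing cells (adjusted p = 0.00018). CDC20, an activator of mitotic exit, was at 0.34 between the OIS states (adjusted p = 0.54) and -3.18 against growing cells (adjusted p = 0.00012). How far the repair genes follow either gene was not tested. With 2 arrays a state, an exact permutation test of a single gene cannot go below a two-sided p of 0.333, so all calls rest on the spread shared across genes.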

How the data were processed

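RNA of IMR90 ER:Ras cells was hybridized to 6 arrays, 2 biological replicates in each state, grouped by their labels. The deposited intensities are MAS5 signals, which the authors computed in Affymetrix Expression Console, with no version or detection calls given in the sources used here. They are linear and scaled to a common level by the authors. The number of arrays limits precision.

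Log2 signals were used with no offset. Each gene was read from the brightest of the probe sets that name no other gene. Genes had to exceed the array median on 2 or more of 6 arrays, and the 13398 that did were fitted in R 4.3.3 with limma 3.58.1, with a mean per state and a prior variance that follows the signal. Benjamini and Hochberg adjustment of p values ran over all of them, with a threshold of 0.05. Where every array of a state lay under its median, the fold is a bound, taken against that median. The self-test ran on simulated data. Signals of all 6 arrays are given for up to 5 called genes per pathway with the largest change between the OIS states, and other repair genes are named as up to 2 per pathway with the largest called change. Further genes given with signals or named beyond this were chosen after their values were seen. The 16 alternatives were a replicate block, the fit of 2 states only, median centring, quantile normalization, no filter, a filter at percentile 70, an offset, no trend, means of probe sets, and each array left out in turn. The mean of probe sets above the median was added after seeing the data. The listed genes and all other lists were chosen with earlier results of these data known. Promoter windows came from RefSeq (GRCh38.p14).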

Additional observations from a re-analysis of the deposited data

How the results depend on the processing

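The 21 genes called lower in Ctrl-KD OIS against growing cells and the 20 called higher between the OIS states stayed within 1.5 times in each alternative tried. The small counts moved more. With the mean of all probe sets, rises in Ctrl-KD OIS against growing cells went from 2 to 1, falls in RB-KD OIS against growing cells from 6 to 2, and falls between the OIS states from 1 to 0. With no filter the second of these was 3, and with no trend in the prior variance the third was 0. Leaving out 1 array gave 1 to 2 for the first, 1 to 7 for the second, 0 to 2 for the third, and 4 to 9 for the 9 rises in RB-KD OIS against growing cells. Among the called genes, 3 values turned sign with the mean of all probe sets. They were those of ATM against growing cells in Ctrl-KD OIS (-0.10) and RB-KD OIS (-0.36) and of FANCC between the OIS states (-0.17). With the mean of probe sets above the median ATM turned sign in RB-KD OIS against growing (-0.011). Sign changes of genes without a call were not counted. NBN was 1 of these, in Ctrl-KD OIS against growing cells, from -0.06 to 0.47 and 0.35 in these settings. The cause was not tested. No shared effect of the replicate number was seen, as deviations of same-numbered arrays correlated at -0.0038 to 0.035. This cannot show whether same-numbered samples came from 1 experiment. A replicate block ended, among the calls of single listed genes, only those of FANCB against growing cells (adjusted p = 0.0519 and 0.0515).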

Other observations

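Further repair routes were read in the same way. Of 8 end joining genes 1 was called between the OIS states (12.5%, beside 12.6% of all genes called higher), PRKDC, the catalytic subunit of the DNA-dependent protein kinase, which rose by 0.58 (adjusted p = 0.0087). The Ku subunits XRCC5 (0.15, adjusted p = 0.25) and XRCC6 (0.05, adjusted p = 0.71) were not called. In Ctrl-KD OIS against growing cells 2 of the 8 were higher, among them LIG4, the ligase of end joining (0.75, adjusted p = 0.0078), and 2 were lower, among them XRCC4, its cofactor (-1.39, adjusted p = 0.0032). Each is 2 of 8, near the 20.5% and 21.2% of all genes.

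Among 35 further excision and single-strand break repair genes 5 rose and 5 fell with RB1 depleted (14.3% each), near the 12.6% and 11.6% of all genes. The largest rises were those of LIG1 (1.74) and FEN1 (1.70), which join and trim Okazaki fragments. The largest fall was that of NEIL2, a glycosylase for oxidised bases (-1.14, adjusted p = 0.00086), which was higher in Ctrl-KD OIS (0.51) and lower in RB-KD OIS (-0.63) than in growing cells. NEIL3, a related glycosylase, was lower than in growing cells in both OIS states (-3.04 and -2.63). In damage tolerance and direct reversal 3 of 14 genes were higher between the OIS states (21.4%), led by HLTF (1.24) and REV3L (1.21), the latter the catalytic subunit of DNA polymerase zeta.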
